A study of Homo sapiens with 12 samples.

Results

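The genes described here are 10 genes of redox defense and ferroptosis, SLC7A11, GPX1, GPX4, GCLC, GCLM, NQO1, HMOX1, TXNRD1, SOD2 and SAT1, taken by name from the 22328 genes listed in a table of RNA-seq expression values. All 10 were listed, and all 10 passed the filter on low values together with 12215 genes in all. The cells were MCF10A, a non-malignant human mammary epithelial line, at fewer than 20 passages. They were grown in DMEM/F12 with horse serum, insulin, EGF, hydrocortisone and cholera toxin, with no stress treatment named in the labels. The WT group was the parental line (4 libraries). KO313 and KO414 (4 libraries each) were p53 KO clones, made with Cas9 and different pairs of guides, each grown from 1 edited cell. What the edit changed and what is particular to a clone therefore cannot be told apart within 1 clone. The paper describes transfection, cell sorting and growth from single cells for the p53 KO clones and not for WT. Effects of these steps and of p53 loss cannot be told apart across both clones either. All p53 KO libraries are repeats of 2 clones.

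Ferroptosis is a form of cell death in which iron drives the peroxidation of membrane lipids. The main brake on it is a glutathione line: SLC7A11 imports cystine, the ligase made of GCLC and GCLM makes the first intermediate of glutathione, and GPX4 spends glutathione to reduce lipid peroxides. NRF2, a transcription factor stabilised under oxidative stress, drives many of these genes, and p53 is known from other human cells to repress SLC7A11 and to induce SAT1.

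GPX1, GPX4 and TXNRD1 are selenoproteins, in which an in-frame TGA codon is read as selenocysteine at the active site, and these codons are shown because they set these 3 members apart from the other 7. The TGA stands in capitals in coding sequence from GENCODE 29 transcripts, written 5′ to 3′. The codon lies at chr3:49358132-49358134 (minus strand) in GPX1, at chr19:1105403-1105405 (plus strand) in GPX4 and at chr12:104348413-104348415 (plus strand) in TXNRD1, on GRCh38. It was codon 49 of 203 in GPX1, codon 73 of 197 in GPX4, and codon 498 of 499, next to the last, in TXNRD1.
GPX1: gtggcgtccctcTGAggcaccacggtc
GPX4: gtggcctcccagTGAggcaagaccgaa
TXNRD1: caggctggctgcTGAggttaa

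Promoters were searched for the core of the antioxidant response element bound by NRF2, TGACNNNGC on either strand, because most of the 10 genes are known NRF2 targets. The RefSeq promoter table (GRCh38.p14, 300 bases around each start) held 8 of the 10 genes. It lists 4 starts for SOD2, 3 for GPX4, 2 for TXNRD1 and 1 for each other gene held. The core was found at GCLM and at both listed starts of TXNRD1, and 13.3% of all 35116 promoters held it. That share is per promoter and not per gene. The first TXNRD1 start holds another core, at bases -8 to 1 from the start, which is not shown. The windows below run in the direction of the gene, with the core in capitals, written GCNNNGTCA where it lies on the other strand. They are chr1:93909431-93909494 (minus strand) for GCLM, with the core 34 to 26 bases before the start, and chr12:104215650-104215718 and chr12:104286900-104286968 (plus strand) for TXNRD1.
GCLM: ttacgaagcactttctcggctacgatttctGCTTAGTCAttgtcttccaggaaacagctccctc
TXNRD1, first start: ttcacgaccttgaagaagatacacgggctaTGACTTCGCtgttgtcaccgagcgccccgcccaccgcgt
TXNRD1, second start: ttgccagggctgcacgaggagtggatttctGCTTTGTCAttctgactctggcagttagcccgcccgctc
A match is a run of letters, not a bound site.

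The same promoters were searched for the p53 decamer, the unit of which a pair makes up a p53 response element, since the clones are p53 KO. It was found in the windows of GPX1, of GCLC and of 1 of the 4 listed starts of SOD2, and 6.63% of all 35116 promoters held it. This share, too, is per promoter and not per gene. The p53 KO estimates of these 3 genes, given with each gene, were -0.39, -0.05 and 0.29 on the log2 scale.

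Values were RPKM, reads scaled by gene length and library size. The study's text says that its RNA reads favour 3′ ends. Reads so placed, divided by the whole gene length, can understate long genes, so the order of genes below is that of the deposited values only. In WT the mean RPKM ran from 235 ± 10.6 (SD, n = 4) for GPX1, the abundant cytosolic glutathione peroxidase, to 2.54 ± 0.0927 for HMOX1, the inducible heme oxygenase. Between them, in falling order, stood NQO1 (128 RPKM), SAT1 (124 RPKM), GPX4 (53.4 RPKM), TXNRD1 (45.2 RPKM), SOD2 (32.5 RPKM), GCLM (19.4 RPKM), GCLC (12.2 RPKM) and SLC7A11 (7.98 RPKM). The WT libraries of neighbours in this order did not overlap, except those of NQO1 and SAT1. GPX1 stood above 98.4% of tested genes in WT and HMOX1 above 24.6%. In KO414 the order of GPX4 and TXNRD1 was turned, with means of 43.9 and 49.3 RPKM, but there their libraries overlapped. With KO414 replicate 1 left out they did not, at 34.1 to 41.6 RPKM for GPX4 and 51.8 to 52.2 RPKM for TXNRD1.

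**Figure D1:**
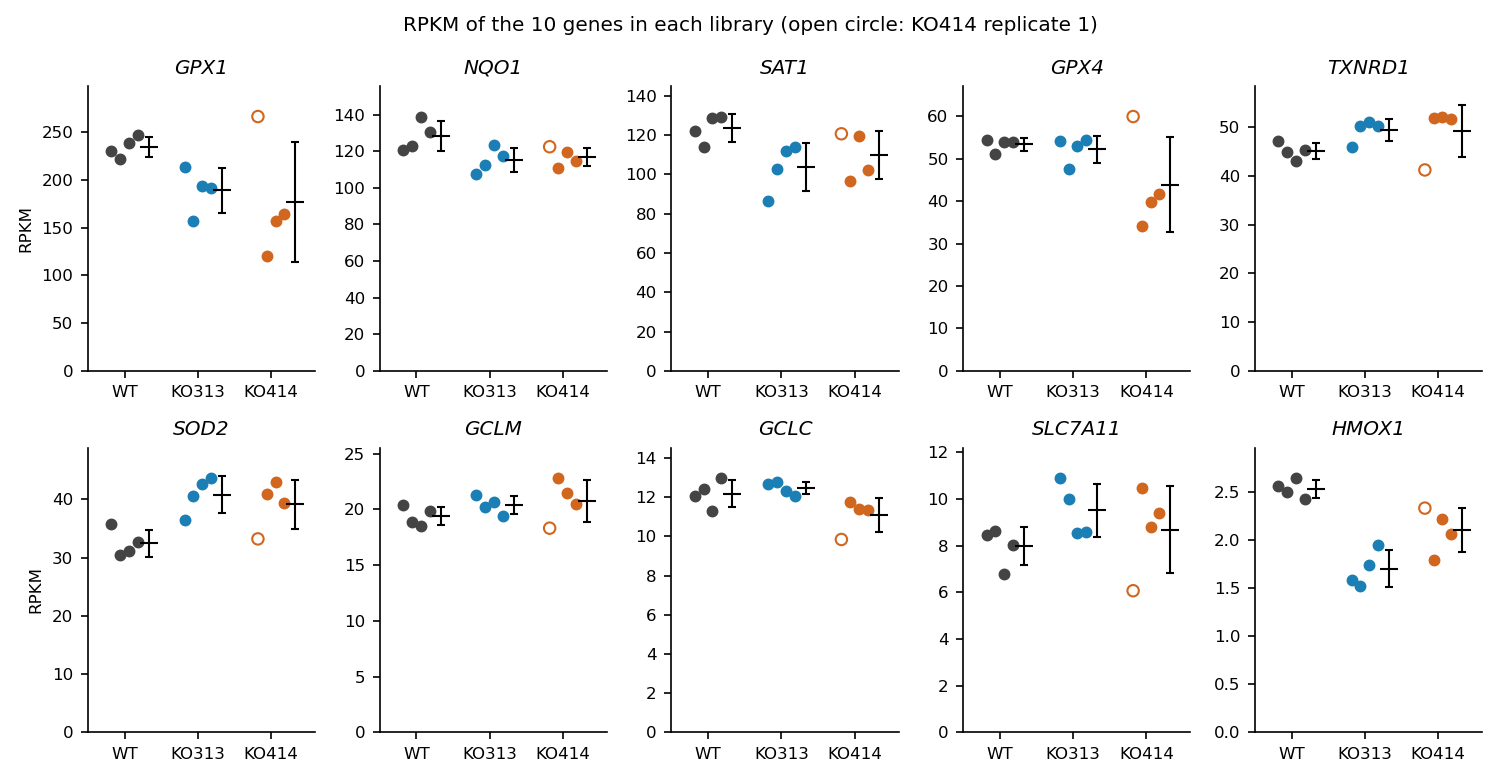
RPKM (y axis, from 0) of each of the 10 genes in the 4 WT, 4 KO313 and 4 KO414 libraries; points are libraries, bars are mean ± SD, and the open circle is KO414 replicate 1. HMOX1 libraries sit between 2.43 and 2.65 in WT and between 1.52 and 2.34 in the p53 KO clones, and GPX1 and GPX4 spread widely in KO414.

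As a check of the labels, the p53 targets CDKN1A (228 to 272 RPKM in WT, 25.4 to 35.6 in p53 KO) and MDM2 (31.5 to 46.3 and 8.59 to 11.5) were low in all 8 p53 KO libraries. All 10 basal mammary markers were at 1 RPKM or more in every library, with summed RPKM of 2470 to 2919 in WT, 1930 to 2240 in KO313 and 1854 to 2010 in KO414. KRT5, KRT6A and KRT17 make up most of the sum, and 6 of the 10 markers had lower means in both clones. Another 3, LAMB3 among them, had higher means in both. For LAMB3 the mean RPKM was 99.9 in WT, against 168 in KO313 and 194 in KO414. The part of these differences in the results was not tested. Of 7 luminal markers, 4 were at 1 RPKM or more in every library, with sums of 221 to 241 RPKM in WT and 220 to 280 in the clones. PGR was at 0 in every library. Of 11 markers of blood, endothelial, stromal and fat cells, 10 stayed under 0.5 RPKM in every library, with sums of 0.365 to 0.821. In these bulk samples, fewer cells of a type and less RNA per cell cannot be told apart.

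KO414 replicate 1 stood apart from the other libraries. Over all tested genes, the SD of its log2 deviations from its group mean was 0.25, against 0.11 to 0.19 in the other 11 libraries. Its deviation depended on gene length, with medians of 0.15 for the shortest of 5 classes of genes by length and -0.23 for the longest. In KO414 replicate 2 these medians were -0.10 and 0.12, and in the WT and KO313 libraries they lay between -0.07 and 0.07. The KO414 mean includes replicate 1, whose deviations therefore push those of the other KO414 libraries the opposite way. How much of the pattern in replicate 2 comes from this was not tested. Among the 10 genes, the short GPX1 (1519 bases) and GPX4 (1714 bases) deviated upward in KO414 replicate 1 by 0.65 and 0.48 on the log2 scale. SLC7A11, the longest at 11157 bases, deviated by -0.46. SOD2, at 2472 bases, went against its length class, with -0.23. For these reasons results are given with and without that library.

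**Figure D2:**
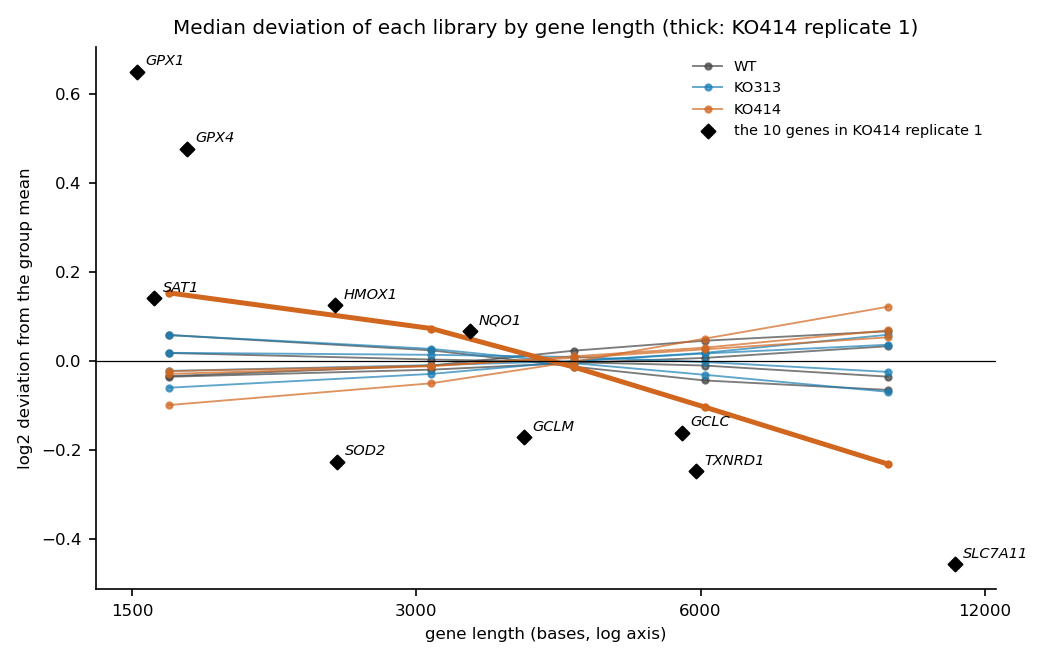
Median log2 deviation of each library from its group mean (y axis) in 5 classes of gene length (x axis, log scale), 1 line per library colored by group, with black diamonds for the 10 genes in KO414 replicate 1. The thick line, KO414 replicate 1, falls from 0.15 to -0.23, and the 10 genes run from GPX1 at 0.65 to SLC7A11 at -0.46.

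The first comparison asked which of the 10 genes differed between all 8 p53 KO libraries and the 4 WT libraries. HMOX1 and NQO1 fell, SOD2 rose, and the other 7 did not pass the test (limma, Benjamini-Hochberg adjusted p under 0.05 over all tested genes). The share of 3 in 10 was close to the background, since 29.6% of all tested genes passed, 15.6% higher and 14.0% lower. None of the 10 reached a fold of 2, which 1.47% of tested genes did. The median log2 change of the 10 genes was -0.10, beside 0.01 over all tested genes, and the median size of change was 0.17 beside 0.13. Without KO414 replicate 1, 7 of the 10 genes passed, beside 36.0% of tested genes. These were the 3 above with GPX1, SAT1, SLC7A11 and TXNRD1.

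HMOX1 cleaves heme and so releases iron, carbon monoxide and biliverdin. Its RPKM was 2.56, 2.50, 2.65 and 2.43 in WT replicates 1 to 4. In KO313 it was 1.59, 1.52, 1.75 and 1.95, and in KO414 it was 2.34, 1.80, 2.22 and 2.07. Every p53 KO library lay below every WT library, a separation that HMOX1 alone of the 10 genes showed and that 19.0% of tested genes showed. The log2 change was -0.35 ± 0.09 (SE; limma adjusted p = 0.00994), with -0.38 without KO414 replicate 1. By clone it was -0.47 ± 0.08 in KO313 (limma adjusted p = 0.00103) and -0.22 ± 0.08 in KO414 (limma adjusted p = 0.0487). The call in KO414 was near the threshold and was lost in 13 of 17 alternative settings. HMOX1 had the fewest reads of the 10 genes.

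SOD2 is the manganese superoxide dismutase of mitochondria, which turns superoxide into hydrogen peroxide. Its RPKM was 35.7, 30.4, 31.2 and 32.6 in WT. In KO313 it was 36.5, 40.5, 42.7 and 43.7, all above WT. In KO414 it was 33.2, 40.9, 43.0 and 39.3, where only replicate 1 fell within the WT range. The log2 change of p53 KO against WT was 0.29 ± 0.07 (SE; limma adjusted p = 0.00745), or 1.23-fold in mean RPKM. By clone it was 0.32 ± 0.08 in KO313 (limma adjusted p = 0.0146) and 0.26 ± 0.08 in KO414 (limma adjusted p = 0.0328), or 0.34 in KO414 without replicate 1. The call in KO414 was lost in 7 of 17 alternative settings, length correction among them (limma adjusted p = 0.0657, within a range of 0.00304 to 0.0987). Gene models of ACAT2, WTAP and 3 other entries overlap SOD2 in GENCODE 29. Whether the counting used strand is not stated, so reads of overlapping genes cannot be told apart here. The same holds for SLC7A11 with its antisense SLC7A11-AS1, TXNRD1 with EID3 among others, NQO1 with AC092115.2, and GCLC with AL033397.1 and AL033397.2. A pseudogene named after SOD2, SOD2P1, is also listed, and how reads shared with it were counted is not stated.

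NQO1 reduces quinones and is a common readout of NRF2. Its RPKM was 121, 123, 139 and 130 in WT, 108, 112, 123 and 118 in KO313, and 122, 111, 119 and 115 in KO414. The groups overlapped, with 6 of 8 p53 KO libraries below the lowest WT library. The log2 change was -0.14 ± 0.05 (SE; limma adjusted p = 0.0459), the smallest of the called changes, and -0.15 without KO414 replicate 1. Neither clone alone passed, at -0.15 in KO313 (limma adjusted p = 0.0904) and -0.13 in KO414 (limma adjusted p = 0.116). The combined call was lost in 12 of 22 alternative settings, with adjusted p from 0.00936 to 0.157.

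GPX1 RPKM was 230, 223, 239 and 247 in WT and 214, 157, 193 and 191 in KO313, below WT throughout. In KO414 it was 267, 120, 157 and 164, so that replicate 1 lay above every WT library and the other 3 below. The log2 change of p53 KO was -0.39 ± 0.16 (SE; limma adjusted p = 0.0748), with a 95% interval of -0.73 to -0.06. Without KO414 replicate 1 it was -0.48 (limma adjusted p = 0.00994, within a range of 0.00994 to 0.171 over 22 alternatives). GENCODE 29 lists 2 pseudogenes named after GPX1, and how reads shared with them were counted is not stated, so its level is uncertain.

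GPX4 protects membranes from lipid peroxides and is the enzyme whose loss triggers ferroptosis. Its RPKM was 54.4, 51.1, 54.0 and 53.9 in WT and 54.1, 47.5, 52.95 and 54.4 in KO313, at much the same level. In KO414 it was 59.9, 34.1, 39.8 and 41.6, again with replicate 1 above and the other 3 below every WT library. The log2 change in KO414 was -0.31 ± 0.13 (SE; limma adjusted p = 0.0868), and -0.47 ± 0.07 without replicate 1 (limma adjusted p = 0.000279). That adjusted p ranged from 0.000279 to 0.215 over 17 alternatives. In KO313 the change was -0.03, with a 95% interval of -0.31 to 0.25.

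TXNRD1, the cytosolic thioredoxin reductase, stood at 47.3, 44.9, 43.1 and 45.4 RPKM in WT and at 46.0, 50.2, 51.2 and 50.2 in KO313. In KO414 it was 41.3, 51.9, 52.2 and 51.8, so that replicate 1 was the lowest of all 12 libraries and the others were above WT. The log2 change of p53 KO was 0.12 ± 0.06 (SE; limma adjusted p = 0.149), and 0.16 without KO414 replicate 1 (limma adjusted p = 0.0095, within a range of 0.0095 to 0.307 over 22 alternatives). The p53 KO estimates of the 3 selenoproteins were thus -0.39 for GPX1, -0.17 for GPX4 and 0.12 for TXNRD1, and none passed in all libraries.

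Among the 10 genes, those of glutathione supply did not pass in all libraries. GCLC and GCLM had the smallest estimates of the 10 for p53 KO against WT. SLC7A11 RPKM was 8.46, 8.62, 6.81 and 8.02 in WT and 10.9, 10.0, 8.53 and 8.60 in KO313. In KO414 it was 6.07, 10.5, 8.80 and 9.40, with replicate 1 lowest of all. Its log2 change in p53 KO was 0.17 ± 0.12 (SE; limma adjusted p = 0.335), with a 95% interval of -0.10 to 0.43. Without KO414 replicate 1 it was 0.24 (limma adjusted p = 0.0311, within a range of 0.0311 to 0.639 over 22 alternatives). GCLM, the modifier subunit of the ligase, ran from 18.6 to 20.4 RPKM in WT and from 18.3 to 22.8 in p53 KO, a log2 change of 0.08, or 0.10 without KO414 replicate 1. GCLC, the catalytic subunit, ran from 11.3 to 12.98 RPKM in WT and from 9.85 to 12.8 in p53 KO, a log2 change of -0.05, or -0.01 without KO414 replicate 1. By clone the GCLC change was 0.03 in KO313 (limma adjusted p = 0.757) and -0.13 in KO414 (limma adjusted p = 0.128). With length correction GCLC passed in KO414 (limma adjusted p = 0.0256). The 95% intervals of the p53 KO change were -0.03 to 0.20 for GCLM and -0.19 to 0.09 for GCLC on the log2 scale. They leave out a 1.5-fold change, which is 0.58 on that scale. These intervals treat the 8 p53 KO libraries as independent and so do not cover the spread between the 2 clones.

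SAT1 acetylates spermidine and spermine and so starts their breakdown. Its RPKM was 122, 114, 129 and 129 in WT, 86.7, 103, 112 and 114 in KO313, and 121, 96.6, 120 and 102 in KO414. The KO313 libraries were all below the lowest WT library, but the nearest values were almost equal, at 113.728 in KO313 and 113.753 RPKM in WT. KO414 overlapped WT, and the difference between the clones did not pass (limma adjusted p = 0.919). The log2 change of p53 KO was -0.22 ± 0.08 (SE; limma adjusted p = 0.0621) and -0.24 without KO414 replicate 1 (limma adjusted p = 0.0292, within a range of 0.0292 to 0.167 over 22 alternatives).

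**Figure D3:**
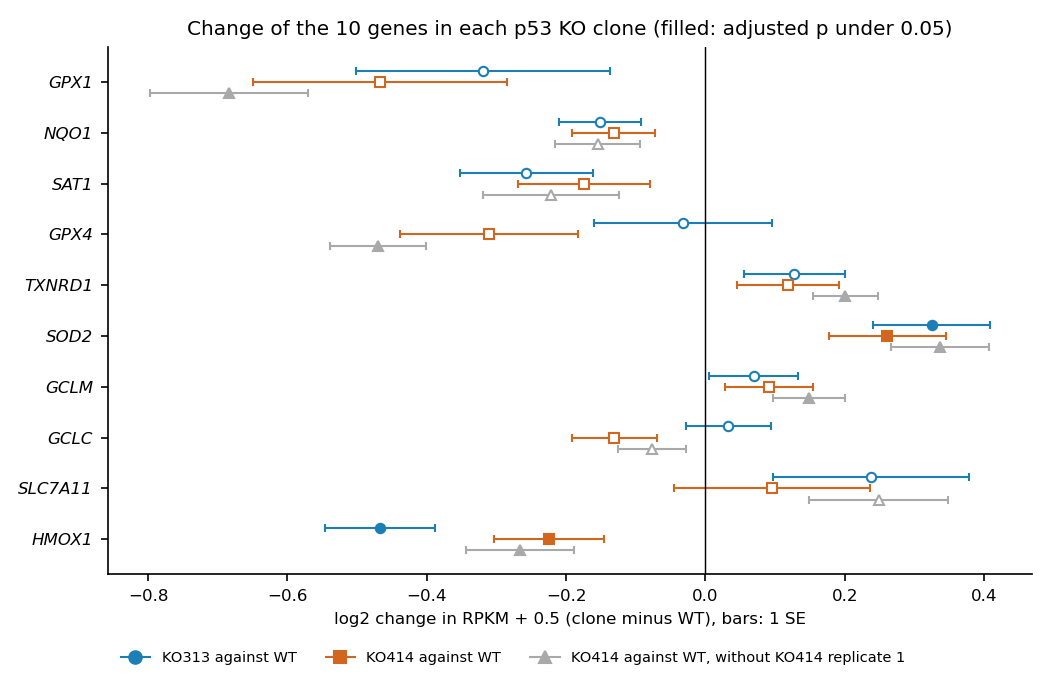
Log2 change in RPKM + 0.5 against WT (x axis) of the 10 genes in KO313 (circles), KO414 (squares) and KO414 without replicate 1 (triangles); bars are 1 SE and filled symbols have an adjusted p under 0.05. HMOX1 and SOD2 are filled for all 3 symbols, and GPX4 lies at -0.03 in KO313 and at -0.31 in KO414.

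Each clone was then compared with WT on its own, and these comparisons share the WT libraries. In KO313, 2 of the 10 genes passed, HMOX1 and SOD2, beside 21.5% of tested genes. In KO414 the same 2 passed, beside 29.8% of tested genes. Without KO414 replicate 1, 6 of 10 passed in KO414, beside 38.9% of tested genes. These were GPX1 (-0.68), GPX4 (-0.47) and HMOX1 (-0.27), which fell on the log2 scale, and SOD2 (0.34), TXNRD1 (0.20) and GCLM (0.15), which rose. The 2 calls in KO414 also depended on which library was left out. Without any 1 of WT replicates 2, 3 and 4 or KO414 replicates 2, 3 and 4, limma called 0 of the 10 genes, beside 22.7% to 28.8% of tested genes. At an unadjusted p under 0.05 these fits gave 2 to 5 of the 10, beside 34.8% to 39.7% of tested genes.

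A direct comparison of KO414 with KO313 asked whether the clones differed. By limma 0 of the 10 genes passed, beside 3.36% of tested genes, and limma-voom likewise called 0. At an unadjusted p under 0.05 there were 3, beside 11.5% of tested genes, HMOX1 (log2 difference 0.24, KO414 higher), GPX4 (-0.28) and GCLC (-0.16). Without KO414 replicate 1, GPX4 passed at -0.44 ± 0.07 (SE; limma adjusted p = 0.00252, within a range of 0.00252 to 0.718 over 17 alternatives), beside 4.23% of tested genes. The 95% interval of the difference in all libraries was -0.56 to -0.00170 for GPX4 and 0.07 to 0.41 for HMOX1.

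As a description of likeness, Pearson's r of log2(RPKM + 0.5) was taken over the 12 libraries, which share group differences and the length pattern above. Within the 10 genes the highest r were 0.91 for GPX1 with GPX4 and 0.89 for NQO1 with SAT1. Outside them, HMOX1 was most like CADM4 (0.95) and BDH2 (0.95), SOD2 most like CDC14A (0.95) and PTPDC1 (0.95), and NQO1 most like ATP5A1 (0.97), a subunit of the mitochondrial ATP synthase.

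Around the 10 genes, 171 other genes in 9 lists of related pathways were tested. In p53 KO against WT, 69 of them passed (40.4%), 22 higher and 47 lower, beside 29.6% of all tested genes. Leaving out the list of p53-linked redox genes, 59 of 159 passed (37.1%), 21 higher and 38 lower. The lists were chosen with earlier results of these data known. Neither these shares nor those of single lists below can therefore be read as an excess over the background. Several genes stand in more than 1 list.

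Among p53-linked redox genes, a list of known p53 targets, 1 of 12 rose and 9 fell (83.3%, beside 29.6% of all tested genes). Their median log2 change was -1.34. This list was chosen for its link to p53, and CDKN1A in it also served in the check of the labels. The sestrins SESN1 and SESN2, stress proteins that lower peroxide levels, fell from 16.9 to 2.89 RPKM and from 8.65 to 2.39. CDKN1A, a cell cycle inhibitor, fell from 249 to 30.7 RPKM. These changes were larger than any among the 10 genes. TXNIP, an inhibitor of thioredoxin, was the 1 that rose, from 10.6 to 16.1 RPKM (log2 change 0.57 ± 0.09, SE, limma adjusted p = 0.000247).

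In the glutathione cycle, 1 of 26 genes rose and 9 fell (38.5%, beside 29.6% of all tested genes). The median log2 change was -0.11. SLC3A2, the partner chain of SLC7A11 in the cystine carrier, rose from 121 ± 5.52 RPKM (SD, n = 4) to 152 ± 15.6 (n = 8 libraries of 2 clones). MGST2, a microsomal glutathione transferase, fell from 23.1 to 19.0 RPKM. HAGH and GLO1, which clear methylglyoxal with glutathione, fell by 0.36 and 0.16 on the log2 scale.

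Of 21 thioredoxin and peroxiredoxin genes, 1 rose (TXNIP) and 4 fell (23.8%, beside 29.6% of all tested genes), with a median of -0.05. The peroxiredoxins PRDX6 and PRDX5 fell from 238 to 207 RPKM and from 69.9 to 55.2 RPKM. TXNRD3, a paralog of TXNRD1, fell from 3.36 to 2.83 RPKM. Of 8 genes of superoxide and peroxide removal, 2 passed, both lower, with a median of -0.11. FOXO1, a transcription factor of antioxidant genes, fell from 2.73 to 1.59 RPKM and PON2, a mitochondrial antioxidant lactonase, from 42.0 to 34.7 RPKM.

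Among 15 NRF2 regulators, 5 passed (33.3%, beside 29.6% of all tested genes), all 5 higher, with a median of 0.04. SQSTM1, which draws the NRF2 inhibitor KEAP1 into autophagy, rose from 66.7 to 96.7 RPKM. MAFG, a small MAF partner of NRF2, rose by 0.28 on the log2 scale, NFE2L1, a relative of NRF2, by 0.22, and BACH1, a repressor of HMOX1, by 0.37. Of 35 NRF2 targets outside the 10 genes, 5 rose and 14 fell (54.3%), with a median of -0.11. The larger falls were in low genes, the efflux pump ABCC2 (2.23 to 0.469 RPKM), the aldo-keto reductase AKR1B10 (0.781 to 0.0673) and the aldehyde dehydrogenase ALDH3A1 (1.25 to 0.316). AKR1B10 and ALDH3A1 were below the filter's 0.5 RPKM in every p53 KO library, at most at 0.130 and 0.421. They passed the filter only through WT, so only a fall could be found for them. ABCC2 in p53 KO lay near that limit, at 0.393 to 0.564 RPKM. IDH1, a cytosolic source of NADPH, fell from 44.3 to 34.0 RPKM.

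In iron handling, 2 of 20 genes rose and 7 fell (45.0%, beside 29.6% of all tested genes), with a median of -0.07. FTH1, the ferritin heavy chain that stores iron, fell from 474 ± 26.3 RPKM (SD, n = 4) to 330 ± 42.4 (n = 8 libraries of 2 clones). Its log2 change was -0.53 ± 0.09 (SE, limma adjusted p = 0.00086). FTL, the ferritin light chain, named after its values were seen, had a log2 change of 0.13 that passed no test (limma adjusted p = 0.553). It rose in KO414 by 0.40 (limma adjusted p = 0.00965), stood at -0.13 in KO313 (limma adjusted p = 0.388), and differed between the clones by 0.53 (limma adjusted p = 0.00813). The iron-sulfur scaffold ISCU, the ferrireductase STEAP3 and the heme synthase FECH also fell, by 0.53, 0.36 and 0.24 on the log2 scale. Of 32 genes of lipid peroxidation and ferroptosis, 4 rose and 8 fell (37.5%), with a median of -0.03. GLS2, a mitochondrial glutaminase and a known p53 target, fell from 9.88 to 2.35 RPKM, and ALOX15B, a lipoxygenase, from 1.73 to 0.582. COQ2 of ubiquinone synthesis fell by 0.29 on the log2 scale, and the glutamine carrier SLC1A5 rose by 0.36.

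In polyamine metabolism, the pathway of SAT1, 5 of 18 genes passed (27.8%, beside 29.6% of all tested genes), all 5 higher, with a median of 0.03. ODC1, the rate-limiting enzyme of polyamine synthesis, rose from 140 to 183 RPKM, and the spermidine synthase SRM from 66.6 to 87.6 RPKM. The spermine synthase SMS rose by 0.19 and MAT2A, which makes S-adenosylmethionine, by 0.20. Without KO414 replicate 1 the list counts moved by at most 2 genes in either direction.

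**Figure D4:**
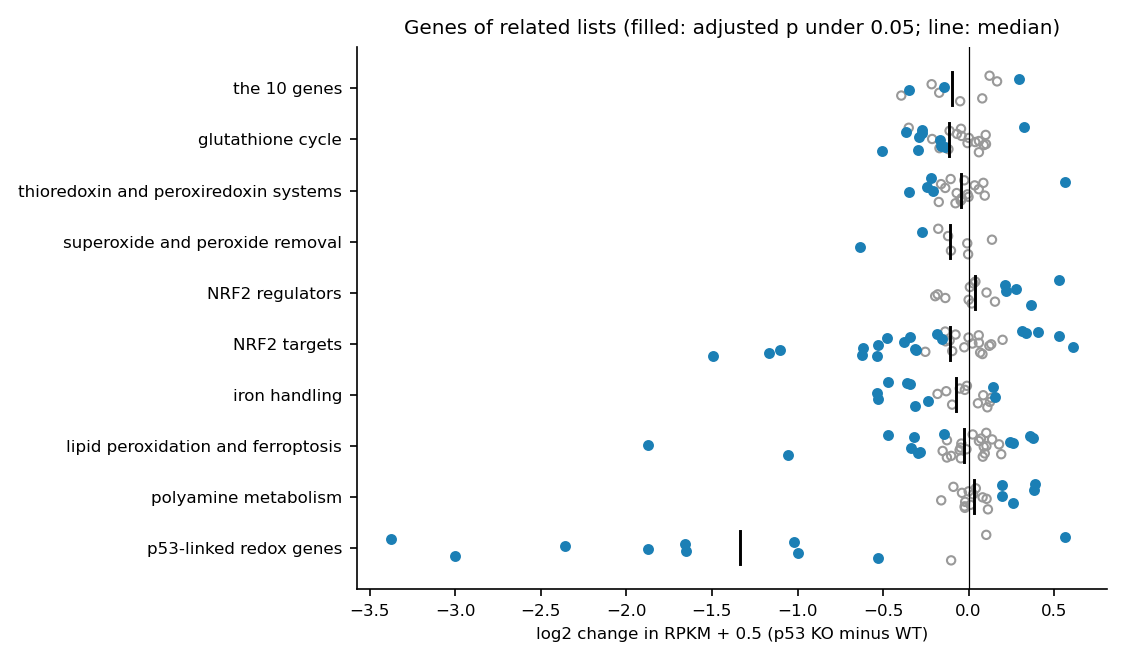
Log2 change in RPKM + 0.5 of p53 KO against WT (x axis) for the 10 genes and each related list without them (rows); each circle is a gene, filled at an adjusted p under 0.05, and the line is the list's median. The 10 genes lie between -0.39 and 0.29, while SESN1 among p53-linked redox genes is at -2.36.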

How the data were processed

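RNA of 12 MCF10A libraries was sequenced by the authors, who deposited 1 table of RPKM per gene. The labels name an mRNA kit, while the study's methods describe removal of rRNA, and which was used is not settled. Trimmomatic and hg19 are named in the submitters' processing notes, and the sources used here name no aligner, counter or annotation. The RPKM of 99.9947% of the 18698 genes above 0 were whole numbers over a gene length and a library total (tolerance 1e-06). These totals differed by only 0.1227% between libraries, so the numbers had been scaled, sequencing depth is not known, and no count test was run as the main test.

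Values were tested with limma 3.58.1 (R 4.3.3) with a trend on log2(RPKM + 0.5), for genes reaching 0.5 RPKM in 4 libraries or more, with p adjusted by Benjamini-Hochberg over all tested genes. This scale understates changes of low genes. A gene could pass the filter through the WT libraries alone, and for such a gene only a fall could be found. The 8 p53 KO libraries were compared with 4 WT in a model of 2 groups, and clones in a model of 3 groups. The model of 2 groups treats the 8 libraries as independent, though they are repeats of 2 clones. Its p-values therefore do not measure the spread between clones. The study's methods call replicates biological repeats; if they share a culture, p-values measure only the spread between these libraries. The 4 entries with repeated date-like symbols were left out. Members and lists were chosen with earlier results of these data known. Named from the lists were up to 4 called genes with the smallest p, and, for likeness, 2 genes per called member. Some items these rules select are not reported here. Alternatives were pseudocounts of 0.1 and 1, a filter of 1 RPKM or none, quantile normalization, median scaling, a replicate block, clone means and leaving out each library. A correction for gene length (lowess, span 0.3) and limma-voom on the scaled numbers were chosen after seeing the data. The fits were tested on simulated data.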

Additional observations from a re-analysis of the deposited data

Results flagged for a closer look

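In KO414, TXNRD1 in replicate 1 lay far below the other 3 libraries (41.3 RPKM against 51.8 to 52.2), and the gap was 0.96 of the whole range of the group. In WT, GPX4 in replicate 2 lay below the others (51.1 RPKM against 53.9 to 54.4), with a gap of 0.839 of the range. Both exceed the 95% limit of Dixon's test for 4 samples. In all, 30 groups of 4 were tested, of which chance flags about 1 in 20.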

How the results depend on the processing

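HMOX1 and SOD2 kept their direction and their call in p53 KO against WT in all 22 alternatives, at -0.43 to -0.29 and 0.26 to 0.34 on the log2 scale. The number of the 10 genes called there was 5 with length correction (beside 35.4% of tested genes) and 2 to 7 over the libraries left out (20.7% to 36.0%). For KO313 it was 4 with length correction (27.3%) and 1 to 2 with libraries left out (15.3% to 19.1%). For KO414 it was 5 with length correction (36.2%), SOD2 not among them, 1 with a pseudocount of 0.1, with a filter of 1 RPKM, with no filter and with limma-voom (23.1% to 29.7%), and 0 to 6 with libraries left out (22.7% to 38.9%). It was 0 without each of WT replicates 2, 3 and 4 and of KO414 replicates 2, 3 and 4, and 1 without WT replicate 1. For KO414 against KO313 it was 1 with length correction (HMOX1, beside 4.52%) and 0 to 1 with libraries left out (2.22% to 4.23%). Over all genes, KO414 against KO313 gave 411 calls, 701 with no filter and 270 to 515 with libraries left out. Calls of a fold of 2 or more in p53 KO against WT numbered 180, 273 with a pseudocount of 0.1 and 306 with limma-voom. Why a setting changed a count was not tested.

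Some values that passed no test changed sign when a library was left out. In KO313 against WT these were GPX4 (-0.0522 to 0.0123) and GCLC (-0.0017 to 0.0627). In KO414 against KO313 they were SLC7A11 (-0.236 to 0.0105), GPX1 (-0.365 to 0.0173), GCLM (-0.024 to 0.079), NQO1 (-0.012 to 0.0526), TXNRD1 (-0.0425 to 0.0731), SOD2 (-0.116 to 0.0118) and SAT1 (-0.0009 to 0.14).

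Deviations of libraries with the same replicate number correlated by over 0.1 in 6 of 12 pairs (-0.19 to 0.51), and in 5 of 12 the library correlated best with its own number, among them replicates 1 to 3 of WT and KO313. Not every pair passed 0.1, so the numbers were not taken to pair the libraries, though the values hint at a link for some. With a replicate block, 4 of the 10 genes were called in p53 KO against WT, 2 in KO313, 3 in KO414 and 0 between the clones, and 3466 genes in p53 KO against WT. By limma adjusted p with this block, GPX1 was gained in p53 KO (0.0345) and in KO414 (0.032), GPX4 was gained in KO414 (0.049) and HMOX1 was lost there (0.0521). The depth of each library is not known, so what depth limits could not be set for each gene.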
